A study of Mus musculus with 36 samples.

Results

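Acyl-CoA thioesterases (*Acot* genes) and acyl-CoA:amino acid N-acyltransferases (*Acnat* genes) were followed in mouse liver across the day and across thyroid hormone receptor beta (THRB) genotypes. The 10 genes *Acot1*, *Acot2*, *Acot3*, *Acot4*, *Acot8*, *Acot11*, *Acot12*, *Acot13*, *Acnat1* and *Acnat2* were found by gene name, each in a single row of a table of 54532 genes. All 10 passed the minimum of 100 counts over the 36 libraries and belonged to the 17994 genes tested. The study asked how loss of THRB changes hepatic transcription over the day, and 3 male mice of each genotype were sampled at ZT2, ZT6, ZT10, ZT14, ZT18 and ZT22, where ZT0 is lights on. Controls (THRB+/-, called THRB WT) and homozygotes (THRB-/-, called THRB KO) carried the Thrbtm1Df allele on the C57Bl/6NCrl background, were 2 to 3 months old, and were kept on chow in 12 h of light and 12 h of darkness. The allele affects both THRB isoforms in every tissue, and no mouse with both *Thrb* copies intact was included.

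Acyl-CoA thioesterases split a fatty acyl-CoA into the free fatty acid and coenzyme A, and N-acyltransferases instead pass the acyl group to an amino acid such as taurine. Both kinds of enzyme set how much acyl-CoA stays activated in a compartment. Long-chain acyl-CoA is a substrate of beta-oxidation and lipid synthesis in the hepatocyte, and several of these genes are known targets of PPARalpha, the fatty acid receptor induced by fasting. ACOT1 works in the cytosol, ACOT2 in mitochondria, and ACOT3, ACOT4, ACOT8, ACNAT1 and ACNAT2 in peroxisomes. ACOT12 is a cytosolic acetyl-CoA hydrolase. ACOT11 is a long-chain acyl-CoA thioesterase first known from brown fat of cold-exposed mice, and ACOT13 is a small thioesterase of mitochondria and cytosol.

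Total counts ranged from 29063273 to 39913574 per library in THRB WT mice and from 31008555 to 42530551 in THRB KO mice. *Thrb*, the targeted gene, was present in all libraries at 28.9 ± 3.69 CPM (mean ± SD, n = 18) in control livers and 31.5 ± 2.70 CPM (n = 18) in the knockouts. CPM, the counts of a gene scaled to library size with TMM factors, is the unit of gene levels here, and summed marker levels were scaled by total counts alone. The *Thrb* counts do not resolve the altered exon and so do not check the genotype. All 7 hepatocyte markers were detected, and their summed level ranged from 68049 to 90730 CPM in THRB WT and from 75735 to 101663 CPM in THRB KO libraries. Most of this sum came from *Alb*, at a mean of 57762 CPM over all 36 libraries. The mean rank correlation of a library with the other libraries of its group was 0.982 to 0.988, and the lowest value belonged to THRB KO mouse c at ZT14.

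Of the members, 4 lie side by side on the plus strand of chromosome 12 (GRCm38) within 72.5 kb, in the order *Acot2* (83987861 to 83993873), *Acot1* (84009490 to 84018371), *Acot4* (84038379 to 84048601) and *Acot3* (84052144 to 84060402). *Acnat2* (49379840 to 49408151) and *Acnat1* (49447105 to 49473912) are neighbours on the minus strand of chromosome 4, with 39.0 kb between them. *Acot11* lies on chromosome 4 from 106744555 to 106804998, *Acot8* on chromosome 2 from 164792765 to 164804882, *Acot12* on chromosome 13 from 91741512 to 91786148, and *Acot13* on chromosome 13 from 24817948 to 24831540. The promoters of the chromosome 12 group are shown because the 4 pairs of members that covaried between mice all fell among these neighbours. The sequences are from RefSeq (GRCm38.p6) and cover 250 bases before the transcript start to 50 bases after it. Capitals mark CCAAT boxes (CCAAT or ATTGG), nuclear receptor half-sites (AGGTCA or TGACCT), E-boxes (CACGTG) and TATA boxes (TATAAA or TTTATA) on either strand.
Acot2 promoter, chr12:83987611-83987910, plus strand: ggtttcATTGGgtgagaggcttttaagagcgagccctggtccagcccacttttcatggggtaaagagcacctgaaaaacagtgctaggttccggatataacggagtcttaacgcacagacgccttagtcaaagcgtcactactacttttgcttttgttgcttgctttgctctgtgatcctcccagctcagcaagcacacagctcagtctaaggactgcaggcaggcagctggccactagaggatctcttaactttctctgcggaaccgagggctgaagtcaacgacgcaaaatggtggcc
Acot1 promoter, chr12:84009252-84009551, plus strand: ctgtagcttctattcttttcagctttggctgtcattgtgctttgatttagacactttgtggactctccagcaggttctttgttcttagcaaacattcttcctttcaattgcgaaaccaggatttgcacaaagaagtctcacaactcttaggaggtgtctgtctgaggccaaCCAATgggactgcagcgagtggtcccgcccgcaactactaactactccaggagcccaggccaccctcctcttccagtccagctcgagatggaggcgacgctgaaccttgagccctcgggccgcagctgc
Acot4 promoter, chr12:84038129-84038428, plus strand: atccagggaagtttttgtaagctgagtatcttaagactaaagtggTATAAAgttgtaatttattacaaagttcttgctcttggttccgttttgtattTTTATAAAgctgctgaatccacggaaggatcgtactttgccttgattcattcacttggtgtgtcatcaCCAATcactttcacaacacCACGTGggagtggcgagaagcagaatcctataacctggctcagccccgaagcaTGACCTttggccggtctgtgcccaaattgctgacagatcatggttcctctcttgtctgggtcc
Acot3 promoter, chr12:84051894-84052193, plus strand: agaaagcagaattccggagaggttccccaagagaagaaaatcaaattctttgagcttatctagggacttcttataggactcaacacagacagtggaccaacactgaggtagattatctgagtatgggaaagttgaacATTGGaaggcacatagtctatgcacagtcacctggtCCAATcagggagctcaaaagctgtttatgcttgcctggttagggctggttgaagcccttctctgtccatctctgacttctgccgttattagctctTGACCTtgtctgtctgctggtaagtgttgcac

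The *Acot1*, *Acot4* and *Acot3* promoters each held a forward CCAAT, at positions -79, -85 and -77 from the start, whereas the only match in the *Acot2* promoter was a reverse one at -244. CCAAT on either strand was found in 37.4% of all 32851 promoters of the same length. The *Acot4* and *Acot3* promoters each held 1 AGGTCA half-site on the reverse strand, at -13 and 18 from the start, and this motif was found in 16.3% of all promoters. RefSeq gives 2 promoters for *Acot3*, and in the one not shown the half-site lies at 11 and the forward CCAAT at -84. The *Acot4* promoter also held the E-box (7.15% of all promoters) and 3 TATA boxes, 2 of them overlapping (13.6%). Among the 9 members with a promoter in the table, AGGTCA was present in 3 (*Acot3*, *Acot4*, *Acot12*) and CACGTG in 2 (*Acot4*, *Acot11*). Direct repeats of AGGTCA spaced by 1 base (0.0396% of all promoters) or 4 bases (0.0152%), and the D-box TTATGTAA (0.938%), were found in 0 of the 9. No promoter was given for *Acot13*. These matches describe letters in a short window and do not locate a bound factor.

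Transcript levels differed widely among the members when scaled by the deposited gene length. This length can exceed that of a single transcript, so the order of members with similar levels may depend on it. It was 6056 bases for *Acot11* and 3919 for *Acot1*, whose transcripts with the longest coding sequence have 2939 and 2272 bases. *Acot13* was highest at 70.0 ± 8.77 CPM per kb (SD, n = 18 THRB WT mice), followed by *Acot12* at 26.5 ± 5.64 CPM per kb, and the ranges of these genes did not overlap with each other or with any other member. *Acnat1* (9.01 ± 2.45), *Acot1* (7.93 ± 3.46), *Acot8* (7.11 ± 0.529), *Acnat2* (7.11 ± 4.45) and *Acot4* (5.85 ± 2.01 CPM per kb) came next, and their ranges overlapped with one another. *Acot3* (2.29 ± 2.14), *Acot2* (1.55 ± 0.564) and *Acot11* (1.05 ± 0.549 CPM per kb) had the lowest means, and their ranges overlapped with each other and with that of *Acot4*. In THRB KO livers *Acot13* and *Acot12* were again highest, at 69.3 ± 9.09 and 29.03 ± 5.60 CPM per kb. *Acnat2* came next there at 10.8 ± 6.78 CPM per kb, within 1 SD of *Acnat1* at 9.0 ± 2.77, and its highest mouse (23.3 CPM per kb) lay above the lowest *Acot12* value (19.1 CPM per kb).

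**Figure D1:**
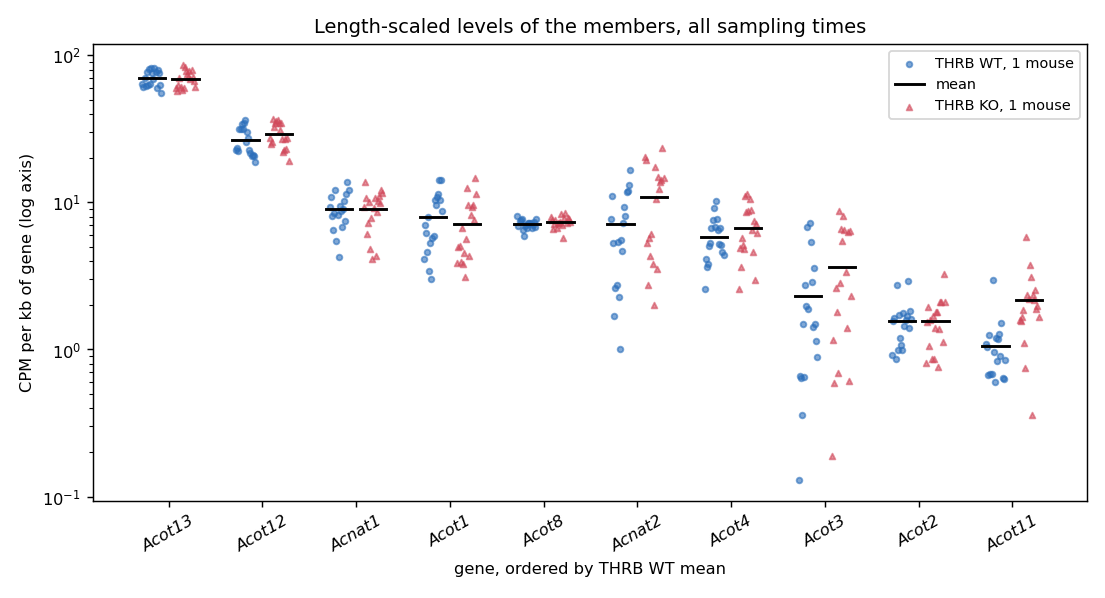
Length-scaled level of each member (CPM per kb of gene, log axis) in every THRB WT and THRB KO mouse over all sampling times, with black lines at the means. *Acot13* and *Acot12* have the highest means in both genotypes, and *Acot3* runs from 0.130 to 8.73 CPM per kb over all mice.

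By the edgeR test over all genes, with no pairing of mice, *Acot11* was the only member whose level differed between genotypes. It was 2.00-fold higher in THRB KO livers. *Acnat2*, *Acot3*, *Acot12* and *Acot4* also had a higher THRB KO mean at all 6 sampling times but did not pass this test. The likelihood ratio test of DESeq2 also called *Acot12* (adjusted p = 0.0304). An edgeR fit with same-lettered mice of each sampling time as blocks also called *Acnat2* (adjusted p = 0.0189) and *Acot12* (0.0301). The labels do not say that letters pair mice. *Acot1*, *Acot2*, *Acot8*, *Acot13* and *Acnat1* had fold changes near 1. Each value that follows is a normalised count in CPM, given in the order of mouse a, b and c.

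At ZT2, *Acot11* was 6.58, 6.30 and 4.05 CPM in THRB WT mice and 9.59, 9.50 and 10.01 CPM in THRB KO mice. At ZT6 it was 7.60, 4.15 and 4.11 CPM in THRB WT and 11.3, 6.72 and 4.52 CPM in THRB KO mice. At ZT10 it was 18.01, 5.81 and 3.63 CPM in THRB WT and 35.3, 14.2 and 13.4 CPM in THRB KO mice. The THRB KO mice were all above the THRB WT mice at ZT2, while the groups overlapped at ZT6 and ZT10, and mouse a at ZT10 was the highest of its genotype in both groups. At ZT14 the levels were 7.24, 5.02 and 7.08 CPM in THRB WT and 22.8, 18.8 and 2.17 CPM in THRB KO mice. At ZT18 they were 7.72, 5.48 and 9.19 CPM in THRB WT and 14.3, 13.1 and 15.4 CPM in THRB KO mice. At ZT22 they were 3.85, 3.84 and 5.17 CPM in THRB WT and 11.5, 12.0 and 10.03 CPM in THRB KO mice. The groups did not overlap at ZT18 and ZT22, and at ZT14 mouse c of the THRB KO group had the lowest *Acot11* level of all 36 mice.

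Over all times *Acot11* averaged 6.38 ± 3.33 CPM across the 18 THRB WT mice and 13.0 ± 7.32 CPM across the 18 THRB KO mice (± SD). The log2 fold change was 0.998 with a standard error (SE) of 0.205 (adjusted p = 0.00711, quasi-likelihood test of edgeR, Benjamini-Hochberg adjustment over 17994 genes, sampling time in the model). This made 1 of 10 members called in that comparison, against 0.950% of all tested genes. *Acot11* was also the member with separated groups at 3 of 6 times, which held for 0.678% of tested genes. At 1 or more times the groups were separated in this direction in 4 members (*Acot8*, *Acot11*, *Acot12*, *Acnat2*), against 24.5% of tested genes. Without any 1 of the 36 libraries the call stayed, with log2 fold changes between 0.90 and 1.11 and adjusted p between 0.000218 and 0.0161. The labels give the 3 mice of each group the letters a to c. The call was lost without the mice of letter a (adjusted p = 0.0558), without those of letter b (adjusted p = 0.190) and without ZT22 (adjusted p = 0.0860), with log2 fold changes of 0.99, 0.89 and 0.93. Libraries did not mark strand, and 23.1% of the 100-base windows of the *Acot11* transcript also occur in *Fam151a* on the opposite strand, which had 0 counts in all THRB WT and 1 count in all THRB KO libraries. How reads that fit both genes were assigned is not given, so these counts do not show that *Fam151a* was silent. The summed level of 5 adipocyte markers was at most 0.177 CPM in THRB WT and 0.160 CPM in THRB KO libraries, and *Lep* had 0 counts. In whole liver, a change in the number of cells that express a gene and a change in RNA per cell cannot be told apart.

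**Figure D2:**
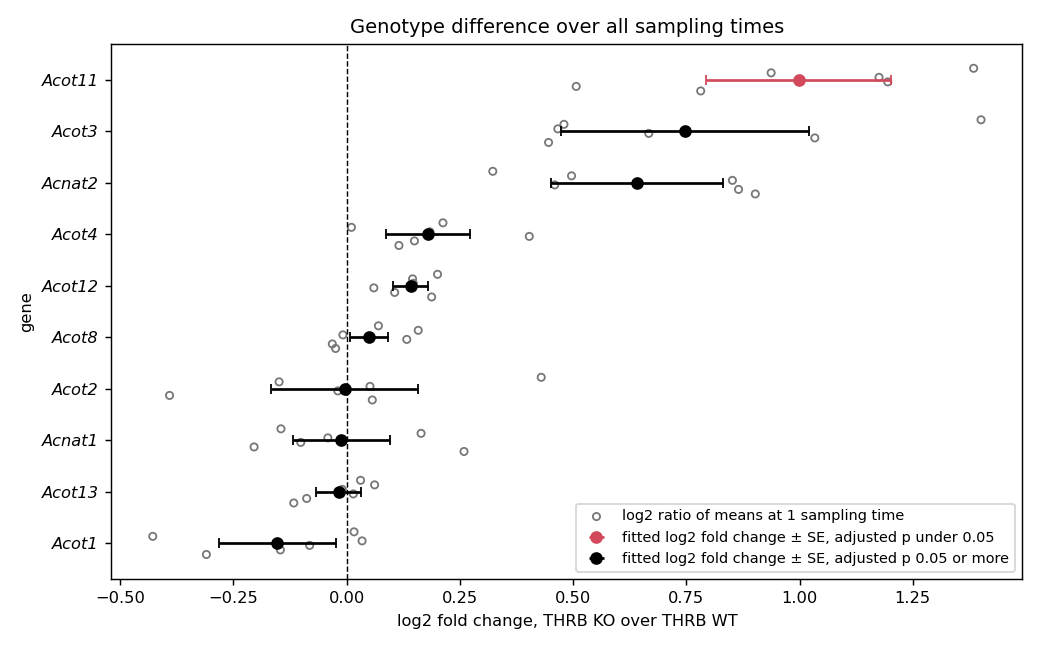
Fitted log2 fold change (THRB KO over THRB WT, sampling time in the model) of each member with its SE, and the log2 ratio of the group means at each of the 6 sampling times as open circles. All 6 ratios lie to the right of 0 for *Acot11*, *Acot3*, *Acnat2*, *Acot4* and *Acot12*, and only the *Acot11* difference (0.998) had an adjusted p below 0.05.

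*Acnat2*, a peroxisomal acyltransferase, was rhythmic in both genotypes and had a higher THRB KO mean at every time. At ZT2 it was 13.5, 19.4 and 9.18 CPM in THRB WT and 35.5, 33.9 and 9.20 CPM in THRB KO mice. At ZT6 it was 2.95, 4.59 and 4.77 CPM in THRB WT and 4.81, 10.02 and 7.58 CPM in THRB KO mice. At ZT10 it was 9.33, 3.98 and 1.77 CPM in THRB WT and 10.6, 6.63 and 3.52 CPM in THRB KO mice. The THRB KO mice lay just above the THRB WT mice at ZT6, and the groups overlapped at ZT2 and ZT10. At ZT14 the levels were 9.60, 8.11 and 12.6 CPM in THRB WT and 30.2, 18.5 and 6.11 CPM in THRB KO mice. At ZT18 they were 16.2, 14.04 and 20.4 CPM in THRB WT and 26.0, 21.5 and 23.96 CPM in THRB KO mice. At ZT22 they were 20.8, 23.0 and 28.9 CPM in THRB WT and 24.9, 40.6 and 25.5 CPM in THRB KO mice. Separation of the groups at 2 or more times, seen here at ZT6 and ZT18, held for 4.03% of tested genes.

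The *Acnat2* log2 fold change was 0.64 (SE 0.189), or 1.56-fold, with adjusted p = 0.0981 from the same edgeR test (n = 18 per genotype). THRB KO mouse c at ZT14 was lowest of its group here too, and without that library the log2 fold change was 0.70 with adjusted p = 0.0433. Without THRB WT mouse a at ZT10, the highest *Acnat2* value of that group, it was 0.74 with adjusted p = 0.0384. Only these 2 of 36 single-library omissions gave a call, and adjusted p reached 0.163 without THRB KO mouse b at ZT22. Of 16 fits with a changed setting or an omitted letter or time, 2 called *Acnat2* (edgeR or DESeq2, adjusted p 0.0117 to 0.744). *Acnat1* has 96.2% identity with *Acnat2* over the aligned coding sequence and shares 16.6% of its own 100-base transcript windows with it, so counts of this pair may be mixed. *Acnat1* averaged 19.2 ± 5.22 CPM across the 18 THRB WT mice and 19.2 ± 5.90 CPM across the 18 THRB KO mice (± SD), with a log2 fold change of -0.01 (SE 0.107).

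*Acot3*, a peroxisomal long-chain acyl-CoA thioesterase, had the widest daily range of the members and overlapping genotypes at every time. At ZT2 it was 0.447, 2.26 and 2.20 CPM in THRB WT and 0.653, 4.01 and 2.02 CPM in THRB KO mice. At ZT6 it was 1.23, 5.15 and 2.24 CPM in THRB WT and 9.06, 6.21 and 2.38 CPM in THRB KO mice. At ZT10 it was 9.43, 6.77 and 23.2 CPM in THRB WT and 30.004, 9.77 and 22.8 CPM in THRB KO mice. In both genotypes all mice at ZT10 were above all mice at ZT2. At ZT14 the levels were 6.46, 24.8 and 18.5 CPM in THRB WT and 18.9, 27.6 and 22.3 CPM in THRB KO mice. At ZT18 they were 9.96, 4.91 and 12.3 CPM in THRB WT and 11.6, 4.81 and 21.5 CPM in THRB KO mice. At ZT22 they were 5.15, 3.93 and 3.04 CPM in THRB WT and 2.10, 22.0 and 7.88 CPM in THRB KO mice. The log2 fold change over all times was 0.75 (SE 0.274, adjusted p = 0.226 from the edgeR test), so a 1.68-fold higher THRB KO level (95% interval of the log2 value 0.21 to 1.28) did not pass the adjustment over all genes.

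*Acot12*, the cytosolic acetyl-CoA hydrolase, had slightly higher THRB KO means throughout the day. At ZT2 it was 74.9, 77.4 and 74.1 CPM in THRB WT and 90.7, 82.5 and 84.7 CPM in THRB KO mice, which did not overlap. At ZT6 it was 104, 103 and 111 CPM in THRB WT and 122, 108 and 113 CPM in THRB KO mice. At ZT10 it was 104, 114 and 119 CPM in THRB WT and 118, 119 and 114 CPM in THRB KO mice. The groups overlapped at these times, and they did so again in the dark phase. At ZT14 the levels were 85.1, 99.4 and 90.1 CPM in THRB WT and 102, 114 and 88.6 CPM in THRB KO mice. At ZT18 they were 74.7, 70.9 and 67.7 CPM in THRB WT and 72.8, 74.2 and 88.9 CPM in THRB KO mice. At ZT22 they were 69.2, 68.0 and 61.9 CPM in THRB WT and 75.9, 90.0 and 62.9 CPM in THRB KO mice. The difference was small, with a log2 fold change of 0.14 (SE 0.039) or 1.10-fold, and adjusted p was 0.0707 by edgeR and 0.0304 by the likelihood ratio test of DESeq2. Without THRB KO mouse c at ZT22 or at ZT14 the edgeR adjusted p was 0.0271 and 0.0367. These were the only 2 of 36 single-library omissions with a call, and adjusted p reached 0.125 without THRB KO mouse c at ZT18. Of 16 fits with a changed setting or an omitted letter or time, 2 called *Acot12* (edgeR or DESeq2, adjusted p 0.0301 to 0.870).

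Of the other members, *Acot4* averaged 39.0 ± 13.4 CPM across the 18 THRB WT mice and 44.8 ± 18 CPM across the 18 THRB KO mice (± SD), with a log2 fold change of 0.18 (SE 0.093, adjusted p = 0.443). *Acot1* averaged 31.1 ± 13.6 and 28.0 ± 13.3 CPM, with a log2 fold change of -0.15 (SE 0.130, adjusted p = 0.704). Its 3 THRB KO mice were all below the 3 THRB WT mice at ZT18, at 32.0 to 37.6 against 42.9 to 55.3 CPM, a separation in this direction that 25.2% of tested genes showed at 1 or more times. *Acot2*, with 3.41 ± 1.24 and 3.44 ± 1.39 CPM, *Acot8*, with 14.2 ± 1.06 and 14.7 ± 1.28 CPM, and *Acot13*, with 52.1 ± 6.53 and 51.5 ± 6.76 CPM, had log2 fold changes of -0.00, 0.05 and -0.02. These 3 had adjusted p of 0.703 or more.

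Of the 10 members, 5 had a higher THRB KO mean at all 6 times, against 3.94% of tested genes, and the median log2 fold change was 0.095 over the members and -0.001 over all tested genes. Further, 4 members had an unadjusted p below 0.05 (*Acot3*, *Acot11*, *Acot12*, *Acnat2*; n = 18 mice per genotype), against 12.1% of tested genes. The study itself singled out *Acot3*, *Acot12* and *Acnat2* from these mice as genes with a higher mesor in THRB KO livers. The mesor is the baseline of a fitted daily curve, compared there by CircaCompare at an unadjusted p below 0.05. Members and lists were chosen with results of these data known, so these counts are not independent evidence of a direction. The genotype difference varied with sampling time in 0 of 10 members and in 0% of tested genes by edgeR, where 0 members and 484 genes had an unadjusted p below 0.05, and DESeq2 also called 0 genes.

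**Figure D3:**
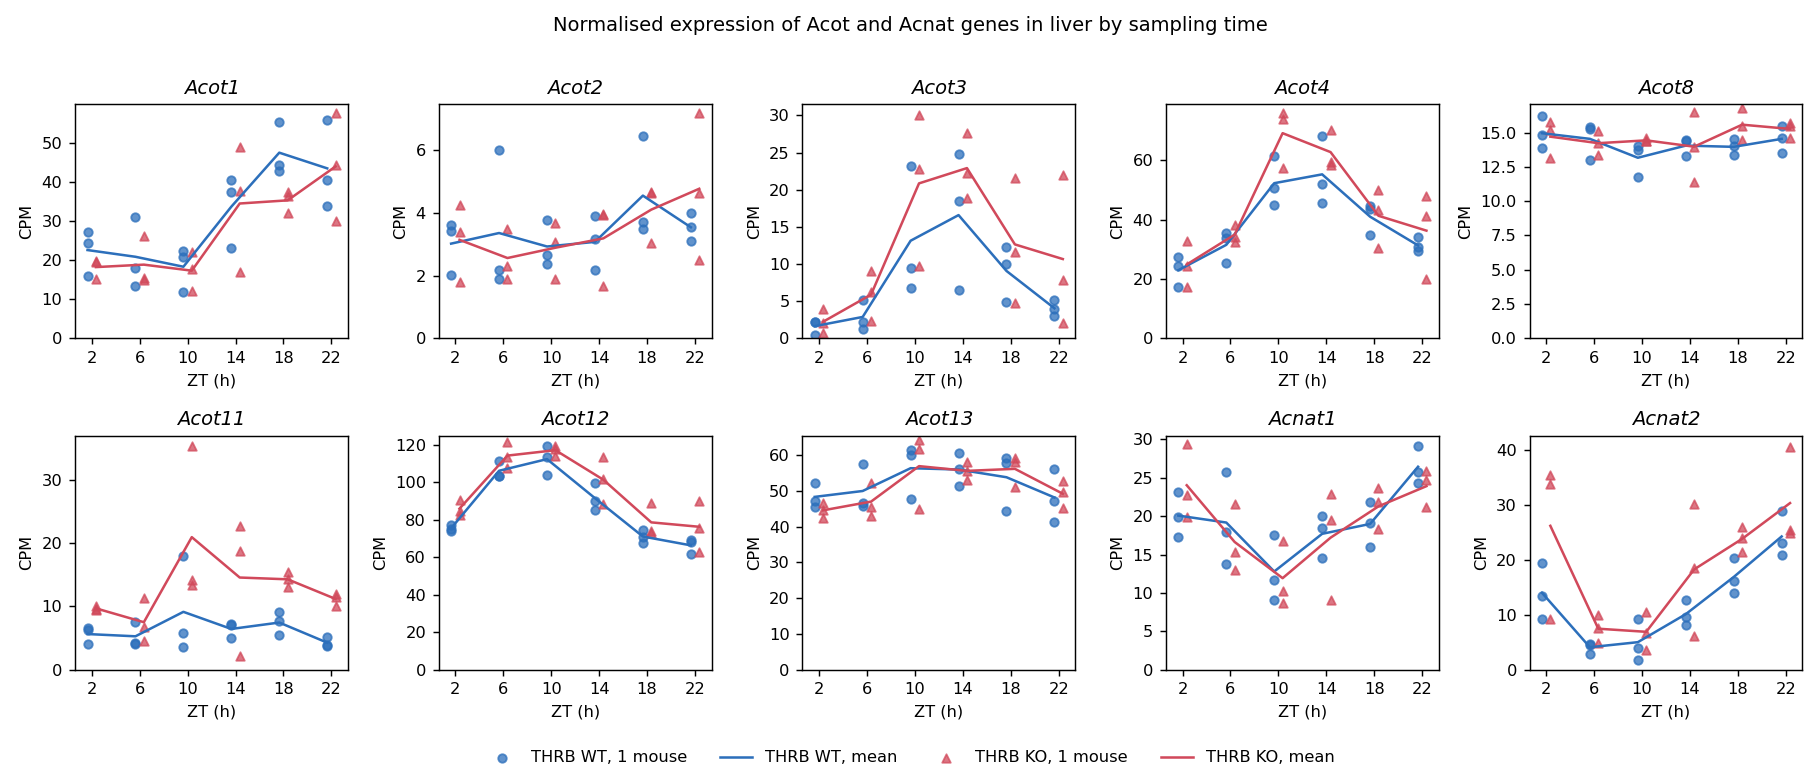
Normalised counts (CPM, axes from 0) of each member at the 6 sampling times, with 1 symbol per mouse (THRB WT circles, THRB KO triangles) and lines through the means of 3 mice. The THRB KO line lies above the THRB WT line throughout in *Acot11*, *Acnat2*, *Acot3*, *Acot4* and *Acot12*, and all *Acot8* values lie between 11.4 and 16.8 CPM.

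Most members varied over the day. A 24-h rhythm passed the test in 6 of 10 members in THRB WT livers (33.0% of tested genes) and in 7 of 10 in THRB KO livers (28.9% of tested genes). *Acot1*, *Acot3*, *Acot4*, *Acot12*, *Acnat1* and *Acnat2* were called in both genotypes, and *Acot13* in THRB KO livers alone (edgeR adjusted p = 0.0183, and 0.160 in controls). *Acot2*, *Acot8* and *Acot11* were called in neither genotype with all mice. In THRB KO livers *Acot2* was called without letter a (adjusted p = 0.0325) and *Acot11* without letter c (adjusted p = 0.0334).

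*Acot12* peaked first, near the end of the light phase, at ZT 9.17 ± 0.256 h (SE) in THRB WT and 9.01 ± 0.501 h in THRB KO livers. *Acot4* and *Acot3* followed early in the dark phase, *Acot4* at 13.4 ± 0.513 h and 12.7 ± 0.703 h and *Acot3* at 14.2 ± 0.665 h and 13.8 ± 0.856 h. *Acot1* peaked in the second part of the night, at 19.0 ± 0.700 h and 18.9 ± 0.881 h. *Acnat2* reached its maximum at 20.6 ± 0.538 h and 20.9 ± 0.803 h, and *Acnat1* at 22.4 ± 1.04 h and 22.4 ± 0.955 h. Within the chromosome 12 group, the SE ranges of *Acot4* and *Acot3*, separated by 3.54 kb, overlapped in both genotypes. The range of *Acot1* also overlapped with that of its neighbour *Acot2* (19.1 ± 2.37 h in THRB WT livers), for which no rhythm was called. *Acot1* and *Acot4*, with 20007 bases between them, had separate ranges in both genotypes, and peak times were not tested between members.

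The mean at the highest time was 10.1 times the mean at the lowest in *Acot3* in THRB WT livers, from 1.64 CPM at ZT2 to 16.6 CPM at ZT14. In *Acnat2* this ratio was 5.91, from 4.10 CPM at ZT6 to 24.3 CPM at ZT22. *Acot1* (2.59), *Acot4* (2.41), *Acnat1* (2.07) and *Acot12* (1.69) had smaller ratios. *Acot12* nevertheless had the lowest adjusted p of the members (1.58e-07 in controls and 8.52e-05 in THRB KO by edgeR), and *Acot3* had 0.000136 and 0.0129. The call was lost without letter a or c for *Acot3* in THRB KO livers (adjusted p = 0.0526 and 0.196) and without letter b for *Acnat2* in THRB KO livers (adjusted p = 0.0664). *Acnat1* lost it without letter a or b in THRB WT livers (adjusted p = 0.0852 and 0.0949) and without a or c in THRB KO livers (0.0686 and 0.0933). *Acot13* in THRB KO livers lost it without a or c (0.0876 and 0.149). With sampling time as a factor in place of the 24-h curve, the THRB KO calls of *Acot13* (adjusted p = 0.110) and *Acnat1* (0.0886) were lost and 5 members were called.

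**Figure D4:**
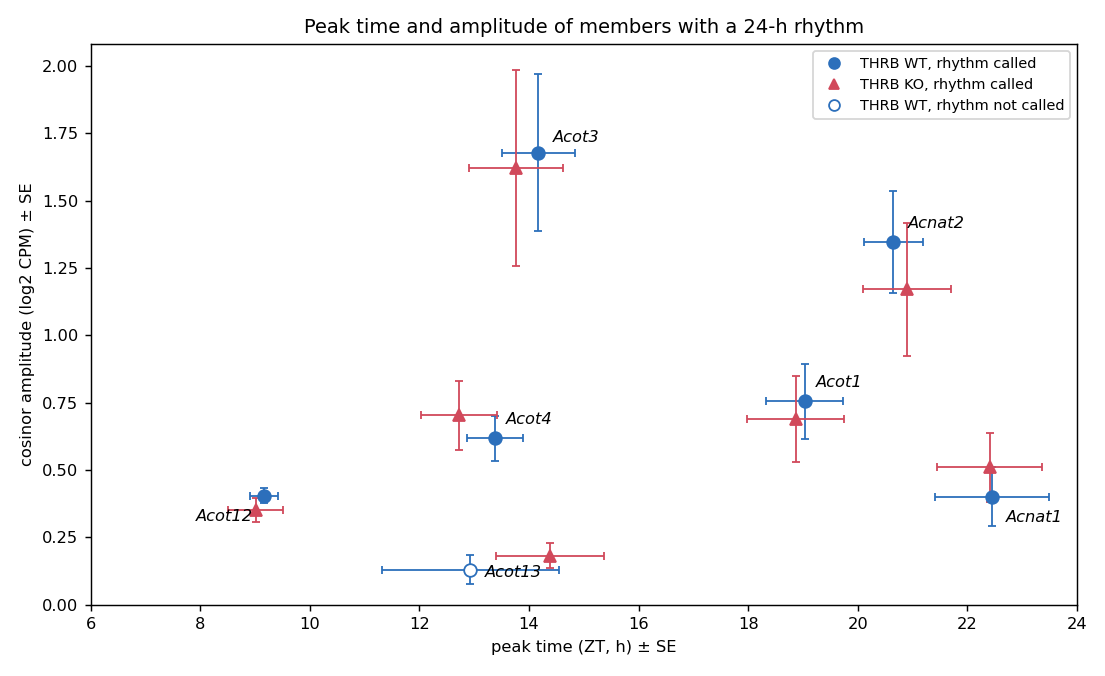
Peak time (ZT, h) against amplitude (log2 CPM) from a cosinor fit, with SEs, for the 7 members with a rhythm called in at least 1 genotype. Blue circles are THRB WT and red triangles THRB KO livers, and the open circle is *Acot13* in THRB WT livers, where no rhythm was called. The 2 genotypes of each member lie within 1.46 h of each other, and *Acot3* has the largest amplitude (1.68 in THRB WT).

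A difference in rhythm between genotypes was called in 0 of 10 members and 0% of tested genes by edgeR, where 553 genes and 0 members had an unadjusted p below 0.05, and DESeq2 also called 0. The peak of *Acot12* in THRB KO livers was -0.154 h from that in THRB WT livers, with a 95% interval from -1.30 to 0.995 h. The corresponding difference was -0.663 h for *Acot4* (-2.44 to 1.11 h), -0.400 h for *Acot3* (-2.62 to 1.81 h) and -0.165 h for *Acot1* (-2.46 to 2.13 h). For *Acnat2* it was 0.244 h (-1.73 to 2.22 h) and for *Acnat1* -0.0363 h (-2.92 to 2.85 h). Shifts within these intervals were not excluded with 3 mice per time. Amplitude differences ranged from -0.17 for *Acnat2* (95% interval -0.81 to 0.46) to 0.13 for *Acot2* (-0.36 to 0.61) on the log2 scale.

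Mice of the same group differed from one another in a coordinated way within the chromosome 12 group. How many pairs of other genes covary between such mice was not computed, so the count below cannot be set against a background. After the mean of each genotype and sampling time was subtracted from log2 CPM, 4 of 45 pairs of members covaried (permutation within groups, 100000 resamples, two-sided, adjusted over 45 pairs), all positively and all among *Acot1* to *Acot4*. *Acot3* and *Acot4* had r = 0.91 (adjusted p = 0.000225) and rho = 0.88 (adjusted p = 0.00045) over 36 mice, and r = 0.89 without the 2 farthest mice. *Acot1* and *Acot2* had r = 0.82 (adjusted p = 0.000225) and rho = 0.80 (adjusted p = 0.000675), and r = 0.83 without the 2 farthest. The unadjusted permutation p of both pairs was 1e-05, the smallest that these resamples can give. The permutation treated the 36 mice as independent. Deviations of same-lettered mice of both genotypes correlated over 0.1 in 16 of 18 pairs, so these p-values may be too small. *Acot2* and *Acot3* had r = 0.66 (permutation adjusted p = 0.0103), rho = 0.61 (0.0189) and r = 0.67 without the 2 farthest, and *Acot1* and *Acot3* had r = 0.60 (0.00555), rho = 0.62 (0.00735) and r = 0.64. Within genotypes, *Acot3* and *Acot4* had r = 0.88 in the 18 THRB WT mice and 0.93 in the 18 THRB KO mice, and *Acot1* and *Acot2* had 0.75 and 0.88. When each letter (a, b, c) was left out in turn, the same permutation test called 0, 0 and 2 of the 45 pairs, with the r of the 4 pairs between 0.42 and 0.97.

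Reads of near-identical copies could contribute to these values, which was not tested. *Acot1* and *Acot2* have 95.5% identity over the aligned coding sequence, and 17.1% of the 100-base windows of *Acot2* also occur in *Acot1*. *Acot3* has 84% identity with *Acot1* and 84.3% with *Acot2*, and 3.12% and 0% of its windows occur in these genes. *Acot3* and *Acot4* have 75.2% identity, and only 0.63% of the windows of *Acot3* occur in *Acot4*. Both overlap in part with the gene *Gm49366* on the same strand, which had 0 counts in all libraries. How reads that fit overlapping genes were assigned is not given, so 0 counts do not show that *Gm49366* was silent. The antisense gene *4732463B04Rik* overlaps *Acot4* and *Acot3* and had 610 counts in all THRB WT and 696 in all THRB KO libraries together. A single library held 536 to 2656 *Acot4* counts and 14 to 995 *Acot3* counts, whereas each antisense total covers 18 libraries. The part of antisense reads in the counts of either gene was not tested.

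**Figure D5:**
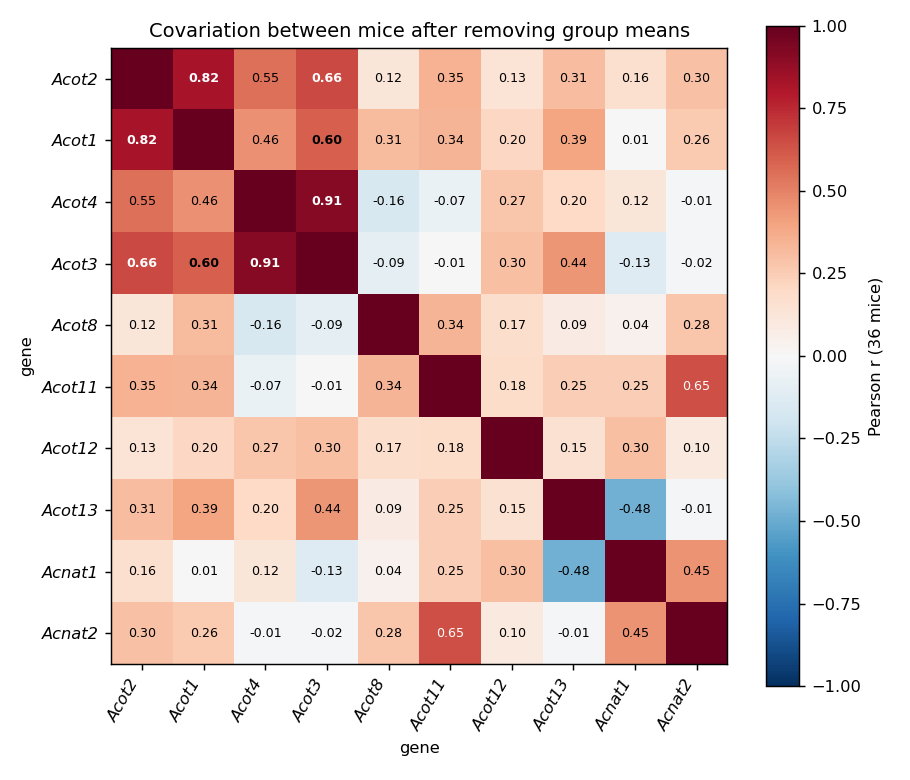
Pearson r between members over 36 mice after the group means were removed from log2 CPM, with the chromosome 12 genes first in genomic order and pairs with adjusted p below 0.05 in bold. The bold values (0.60 to 0.91) all fall in the block of *Acot2*, *Acot1*, *Acot4* and *Acot3*.

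Across all 36 libraries, where genotype and time of day contribute to likeness, the gene most like *Acot3* among genes of at least 1 CPM was *Acot4* (Pearson r of log2 CPM 0.94), followed by *Slc16a7* (0.86) and *Mapre2* (0.86). *Mapre2* (0.90) and *Tnks1bp1* (0.89) followed for *Acot4*. *Acot12* was most like *Pnpla2* (0.94), which encodes adipose triglyceride lipase, then *Ppm1a* (0.94) and *Josd1* (0.93). *Acot11* was most like *Gcdh* (0.76), the glutaryl-CoA dehydrogenase, then *Mycl* (0.70) and *Gstt1* (0.69). *Acnat2* was most like *Celsr1* (0.87), *Desi2* (0.86) and *Bpnt1* (0.85). *Acot1* was most like *4931406C07Rik* (0.81), *Elmod3* (0.80) and *Hspb1* (0.80), and *Acot2* like *Acot1* (0.75), *Reck* (0.70) and *Ezr* (0.69). *Acot13* was most like *Mif* (0.86), *Uqcrfs1* (0.86) and *Marc2* (0.85), and *Acot8* like *Adtrp* (0.70), *Skp1a* (0.69) and *Slc16a13* (0.65).

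Related genes outside the members were compared in the same way, and over all tested genes 0.950% were called for genotype by edgeR. From these mice the study had already named *Abcd2*, *Acox2*, *Cpt1a* and *Baat* as genes with a higher mesor in THRB KO livers. It had named *Acsm1*, *Acsm2* and *Acot6* as genes with a lower one. Of 7 tested genes among other thioesterases, 0 were called, with *Acot6* at a log2 fold change of -0.53 (SE 0.169, adjusted p = 0.142) and *Baat*, the bile acid conjugating enzyme, at 0.11 (SE 0.042, adjusted p = 0.267). Among these 7, 3 had an unadjusted p below 0.05 (n = 18 mice per genotype), *Acot6*, *Baat* and *Ppt2*, against 12.1% of all tested genes, and DESeq2 called 0. Of 28 PPARalpha target genes, 0 were called by edgeR and 1 (*Etfdh*) by DESeq2, while 11 had an unadjusted p below 0.05 (n = 18 mice per genotype), which held for 12.1% of all tested genes. Of their log2 fold changes 21 were positive, with a median of 0.07 against -0.001 over all tested genes. *Etfdh* (0.14, adjusted p = 0.0981) and *Cpt1a* (0.21, adjusted p = 0.109) had the smallest p-values of this list. In peroxisomal beta-oxidation, 3 of 22 tested genes rose and 0 fell by edgeR, with 11 positive and 11 negative log2 fold changes. Of these 22, 7 had an unadjusted p below 0.05 (edgeR, n = 18 mice per genotype), against 12.1% of all tested genes. DESeq2 called 4, these 3 and *Nudt7*, a coenzyme A diphosphatase of peroxisomes, which had a log2 fold change of -0.39 (edgeR adjusted p = 0.0772). Those that rose were *Abcd2* (log2 fold change 1.07, SE 0.180, adjusted p = 0.000586) and *Abcd3* (0.20, adjusted p = 0.0324), transporters of fatty acyl-CoA into peroxisomes, and the branched-chain oxidase *Acox2* (0.21, adjusted p = 0.0396). Among 19 acyl-CoA synthetases 0 rose and 2 fell, *Acsm2* (-1.13, SE 0.173, adjusted p = 0.000138) and *Acsm1* (-0.17, adjusted p = 0.000711), and these were also the 2 of 10 that fell among genes of amino acid conjugation. An unadjusted edgeR p below 0.05 was found in 7 of the 19 and in 6 of the 10 (n = 18 mice per genotype). Of 19 core clock genes 0 were called for genotype by edgeR or DESeq2, with 0 at an unadjusted p below 0.05 (n = 18 mice per genotype), and 18 were rhythmic in each genotype.

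Markers of other liver cells were called in 0 of 6 endothelial, 6 stellate, 7 Kupffer, 5 cholangiocyte and 5 lymphocyte genes by edgeR and by DESeq2, and 2 of them, both in the cholangiocyte list (*Spp1* and *Sox9*), had an unadjusted p below 0.05 (n = 18 mice per genotype). Their summed levels overlapped between genotypes, for example 28.5 to 53.5 CPM in THRB KO against 34.4 to 64.6 CPM in THRB WT libraries for the cholangiocyte markers, all 5 of which had negative log2 fold changes, as did all 7 Kupffer markers (median -0.06). The Kupffer markers reached 563 CPM in 1 THRB WT library against a median of 208 CPM. Of the 7 hepatocyte markers 0 were called by edgeR or DESeq2, with 4 positive and 3 negative log2 fold changes. An unadjusted edgeR p below 0.05 was found in 2 of these 7, *Ttr* (log2 fold change -0.14) and *Apoa1* (-0.12), against 12.1% of all tested genes. The part of these markers in the members' differences was not tested.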

How the data were processed

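Livers of 36 mice were sequenced by the authors as read pairs from poly-A selected, non-directional libraries. The authors mapped reads to GRCm38 with HISAT2, counted them per gene with featureCounts and deposited raw counts of 54532 genes without normalization; versions and the handling of reads with several matches are not given in the sources used here. Genes with at least 100 counts in all were tested (17994). Counts were scaled by TMM and fitted with edgeR 4.0.16 (glmQLFit, glmQLFTest; R 4.3.3), with Benjamini-Hochberg adjustment over all tested genes and a threshold of 0.05. Genotype was tested with sampling time as a factor, and 24-h rhythms with sine and cosine terms. Log2 CPM used a prior count of 2, and cosinor SEs the delta method. Permutations were run in Python 3.11.15. DESeq2 1.42.0, its size factors, other filters, a robust fit, genotype without sampling time, rhythms with sampling time as a factor, a replicate block and omitted letters were alternatives, and omitted times and single libraries were added after the data had been seen. Fits were tested on simulated data. CPM per kb used the deposited gene lengths, and coordinates of the 10 members equalled GENCODE M21. The members and lists were chosen with earlier results of these data known. All members were named, with up to 4 genes of smallest p of each list and the 3 genes most like each member, except those of *Acnat1*, which are not reported here.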

Additional observations from a re-analysis of the deposited data

How the results depend on the processing

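The number of genes called for genotype was 171, and it was 306 with DESeq2, 65 without sampling time in the model and 40 to 81 without the mice of 1 letter. The members called, 1 with all mice (*Acot11*), became 2 with DESeq2 (*Acot11*, *Acot12*), 0 to 2 without 1 letter, and 0 without ZT22, an alternative chosen after seeing the data. Rhythmic genes numbered 3109 to 4005 in THRB WT and 2343 to 3192 in THRB KO livers without 1 letter, against 5936 and 5201, and pairs of covarying members 0 to 2 against 4, where only 2 mice a group were left. Same-lettered mice of both genotypes had deviations correlated over 0.1 in 16 of 18 pairs (lowest -0.0611, median 0.204), and 17 of 18 THRB WT mice correlated best with their own letter, but the labels do not say that letters pair mice. With the replicate block, 387 genes and 3 members were called for genotype (*Acot11*, *Acot12* with adjusted p = 0.0301, *Acnat2* with 0.0189), and 1 gene, no member, for a rhythm difference. Log2 fold changes near 0 changed sign. That of *Acot2* was -0.0503 to 0.0356 without 1 letter (0.00718 without b), 0.0119 without time in the model, and 0.0710, 0.000121 and 0.0286 without ZT6, ZT10 and ZT18. That of *Acot13* was -0.0413 to 0.00309 without 1 letter and 0.00181 without ZT2. That of *Acnat1* was -0.0450 to 0.0249 without 1 letter and 0.0276, 0.00502 and 0.0195 without ZT6, ZT10 and ZT22. The causes were not tested.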

Other observations

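THRB KO mouse c at ZT14 had the lowest value of its 3 mice in 8 of the 10 members and the highest in 0. Its *Acot11* level was 2.17 CPM against 22.8 and 18.8 CPM in the other two, its *Acot1* level 16.9 CPM against 48.9 and 37.7 CPM, and its *Acnat1* level 9.14 CPM against 19.5 and 22.9 CPM. THRB KO mouse b at ZT22 had the highest value of its group in 8 of 10 members, among them *Acot3* with 22.0 CPM against 2.10 and 7.88 CPM.

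*Acot11* and *Acnat2*, which lie far apart on chromosome 4, had r = 0.65 between mice of the same group (permutation, adjusted p = 0.0669, rho = 0.52), and r = 0.48 without the 2 farthest mice. *Acot13* and *Acnat1* had r = -0.48 (permutation, adjusted p = 0.0669) and rho = -0.55 (adjusted p = 0.0355), the only negative pair with an adjusted p below 0.05 by either measure. *Acot1* and *Acot4* had equal counts in 2 libraries, 932 in THRB WT mouse b and 831 in THRB WT mouse c at ZT2.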
